A study of Mus musculus with 4 samples.

Results

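Calcium stored in the endoplasmic reticulum (ER) of pancreatic islet cells is released through channels, returned by pumps, and controlled by the messenger inositol trisphosphate (IP3). The genes described here are 9 of these components: the IP3 receptors Itpr1, Itpr2 and Itpr3, the ryanodine receptor Ryr2, the ER calcium pumps Atp2a2 and Atp2a3, and the IP3 3-kinases Itpka, Itpkb and Itpkc. They were chosen by symbol from the 55487 genes of the deposited table, and each symbol matched 1 row. The RNA came from islets of the pancreas, taken fresh from C57BL/6 mice at 30 weeks of age. Control mice were Ggcx flox/flox without Cre, and knockout mice were Ggcx flox/flox with Pdx1-Cre, so both genotypes carry the floxed Ggcx alleles. A library held the pooled islets of 2 mice, and there were 2 libraries for each genotype (n = 2). The Pdx1 promoter is active early in the whole pancreatic lineage, so Pdx1-Cre can recombine floxed alleles in duct and acinar cells as well as in islet endocrine cells. No group carried Cre without floxed Ggcx, so effects of the transgene and of the loss of Ggcx cannot be told apart.

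When a hormone or transmitter activates a receptor coupled to Gq, phospholipase C cuts a membrane lipid and frees IP3, which opens IP3 receptors in the ER membrane. Calcium then flows into the cytosol, and the pumps of the SERCA family, encoded by the Atp2a genes, spend ATP to bring it back into the ER lumen. IP3 3-kinases add a phosphate to IP3, which ends its action on the receptor and makes inositol tetrakisphosphate. In beta cells this store supports the calcium signals that accompany insulin secretion and keeps ER lumen calcium high enough for proinsulin folding.

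Total reads assigned to genes ranged from 47624630 to 51756221 per library. Values are read counts that the authors normalized to library size. The control libraries are named by their column numbers, 2 and 3, because these numbers do not match the numbering in the labels. Ggcx stood at 3971 and 3981 in control columns 2 and 3 and at 234 and 643 in knockout replicates 1 and 2, as the labels have it. The islet hormones Ins1, Ins2, Gcg, Sst and Ppy were all abundant, with the lowest of their values at 62166 (Ppy in control column 3). Of 16589 tested genes, 41 were called higher and 62 lower in knockout islets by limma at an adjusted p under 0.05. With the libraries set to the same upper quartile, 57 and 55 were called. These counts depended on the fit: limma without a trend of variance on mean called 0 and 0, and DESeq2 called 120 and 202.

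Among these components, Itpkc was lower in knockout islets by limma across all genes, a call that was lost in 5 of 14 alternative fits. The other 7 tested genes were not called by limma with all 4 libraries, and Ryr2 was too low to test. DESeq2 on the recovered reads and the authors' deposited table called Atp2a2 lower as well. Both rest on the same 4 libraries, so they are not independent results. DESeq2 called 1.94% of all tested genes, and the authors' table called 314 of its 13381 genes with an adjusted p, 203 of them lower. The 1 limma call among 8 tested genes stands beside 0.621% of all tested genes called in either direction, 0.374% lower and 0.247% higher. In bulk islets, fewer cells of a type and less RNA per cell cannot be told apart, for Itpkc and for every other gene. The group ranges did not overlap for 6 of the 8 tested genes (Itpr1 and Itpka with higher knockout values, Itpr3, Atp2a2, Atp2a3 and Itpkc with lower ones), beside 45.0% of all tested genes (22.0% with higher and 23.0% with lower knockout values). Fold changes are knockout over control, as log2 of value + 1, and their median was -0.09 over the 8 genes and 0.00023 over all tested genes.

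**Figure D1:**
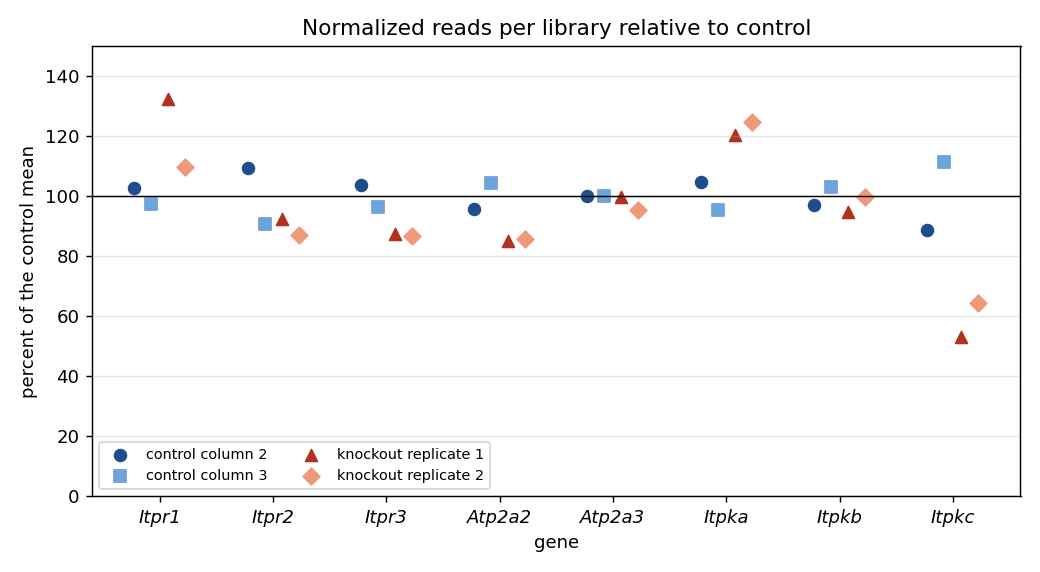
Normalized reads of the 8 tested genes in each of the 4 libraries, as a percent of the mean of the 2 control libraries (y axis, linear from 0), by gene (x axis). Itpkc stood at 53.0% and 64.3% of the control mean in the knockout libraries, and Itpr1 at 132% and 110%.

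Transcript levels per length spanned several orders of magnitude. Levels are given as normalized reads per kb of annotated exon, which allows genes of different length to be compared. The pumps were at the top: Atp2a2 averaged 12616 per kb over the 4 libraries, above 99.4% of tested genes, and Atp2a3 averaged 6981. Itpkb followed at 1225 per kb. Itpr1 at 251, Itpkc at 246 and Itpr3 at 245 per kb overlapped in their library values and changed places between libraries, so their order is not resolved. Itpr2 at 82.7 and Itpka at 41.9 per kb came next, and Ryr2 was last at 0.122 per kb. Apart from those 3, each gene exceeded the next in every library.

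**Figure D2:**
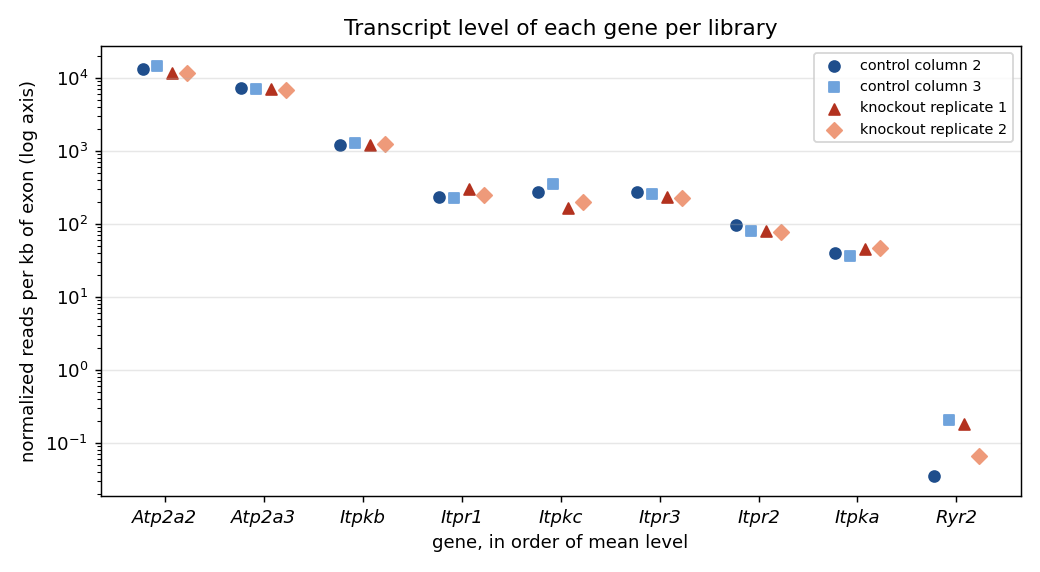
Normalized reads per kb of exon (y axis, log scale) for each of the 9 genes (x axis, in order of mean level), with 1 point per library. The 2 pump genes lie at or above 6737 per kb in all 4 libraries, and Ryr2 at or below 0.203.

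Itpr1 encodes the IP3 receptor best known from neurons (ENSMUSG00000030102; GRCm38 chromosome 6, 108213096 to 108551109, plus strand). It had 4273 and 4049 normalized reads in control columns 2 and 3, and 5505 and 4562 in knockout replicates 1 and 2. Both knockout libraries were above both controls, but knockout replicate 1 was well above knockout replicate 2. The log2 fold change was 0.27 ± 0.08 (SE; 95% interval 0.08 to 0.45) with a limma adjusted p of 0.176, so it was not called. Without knockout replicate 2 it was 0.40 with a limma adjusted p of 0.00891, and without knockout replicate 1 it was 0.13 with 0.605. Summed alpha cell markers were 1199336 and 1394897 in controls against 1694796 and 1410505 in knockout replicates 1 and 2. Knockout replicate 1 was highest for both this sum and Itpr1, while the controls were in the opposite order. The alpha sum was largely Gcg, at 1096489 and 1273993 in control columns 2 and 3, and so mostly reports that gene. Summed stellate cell and fibroblast markers, at 12389 and 10613 in controls against 13386 and 12800.0 in knockouts, had the same order as Itpr1 in all 4 libraries. The part of either cell type in the Itpr1 values was not tested.

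Itpr3 encodes the receptor with lower affinity for IP3, prominent in epithelial and secretory cells (ENSMUSG00000042644; chromosome 17, 27057304 to 27122223, plus strand). It had 2446 and 2279.6 normalized reads in control columns 2 and 3, and 2061 and 2047 in knockout replicates 1 and 2. The knockout libraries lay close together and below both controls. Knockout over control was -0.20 ± 0.06 on the log2 scale (SE; 95% interval -0.33 to -0.07) with a limma adjusted p of 0.155. Means with SD over 2 libraries were 2363 ± 118 for controls and 2054 ± 9.58 for knockouts.

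Itpr2 encodes the receptor with high affinity for IP3 (ENSMUSG00000030287; chromosome 6, 146108299 to 146502223, minus strand). Its values were 1410.0 and 1168 in controls against 1192 and 1124 in knockouts, in the order given above. Knockout replicate 1 lay inside the control range, so the groups overlapped. Its log2 fold change was -0.15 ± 0.09 (SE; 95% interval -0.35 to 0.06) with a limma adjusted p of 0.526. It was -0.013 without control column 2 and -0.28 without control column 3.

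The makeup of the IP3 receptor pool was then described as each gene's share of the summed level per kb of the 3 receptors. Itpr1 took 38.9% and 40.0% in controls against 49.3% and 45.1% in knockouts. Itpr3 took 45.2% and 45.7% in controls and 37.5% and 41.1% in knockouts. Itpr2 stayed the smallest part, at 13.2% to 15.9%. The ratio of Itpr1 to Itpr3 was 0.860 and 0.874 in controls and 1.32 and 1.10 in knockouts, so the groups did not overlap. Itpr1 was higher and Itpr3 lower in both knockout libraries, so the ratio restates those values and is no separate result. An exact permutation test of 2 against 2 libraries cannot go below p = 0.333 (two-sided), so no test of the shares was made. The summed receptor level was 576 ± 33.3 per kb in controls against 581 ± 40.7 in knockouts (n = 2 each, SD).

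The shares depend on which length is used, because Itpr1 has 13 annotated transcripts and an exon union of 18319 bases, against 9870 for its longest transcript. With the longest transcript as the length, a choice made after the data were seen, Itpr1 exceeded Itpr3 in every library, at ratios of 1.59 and 1.62 in controls and 2.43 and 2.03 in knockouts. The receptor that leads in control islets is therefore not resolved. A change of length multiplies the ratio by the same factor in every library, so it says nothing about the comparison between genotypes. The summed receptor level mixes the genes, so its comparison between genotypes can change with the length.

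**Figure D3:**
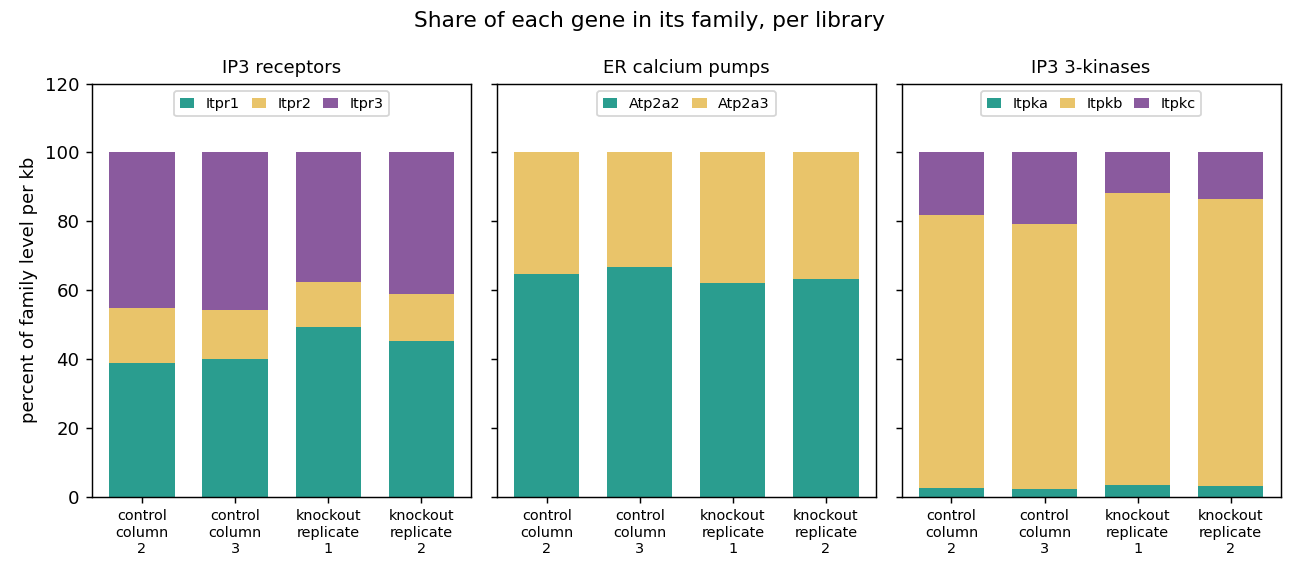
Percent of the summed level per kb (y axis) taken by each gene of the IP3 receptors, the ER calcium pumps and the IP3 3-kinases, in each of the 4 libraries (x axis). Itpkc, at the top of the right panel, took 18.1% and 20.8% of the kinase level in controls and 11.9% and 13.4% in knockouts.

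Ryanodine receptors are the other class of ER calcium release channel, opened by calcium itself. Ryr2, the cardiac form (ENSMUSG00000021313; chromosome 13, 11553102 to 12106945, minus strand), was near the limit of detection. It had 1 and 6 reads in control columns 2 and 3 and 5 and 2 reads in knockout replicates 1 and 2. The sum was 7 reads in each genotype, with an exact Poisson 95% interval of 2.81 to 14.4 reads that covers counting error only. No difference was detectable at this depth. The related genes were low too, with 4 reads over all libraries for Ryr1 and 54 for Ryr3. Ryr3 was tested and not called (log2 fold change 0.07 ± 0.39 SE, limma adjusted p 0.965).

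Atp2a2 encodes SERCA2, whose SERCA2b form is the housekeeping ER pump (ENSMUSG00000029467; chromosome 5, 122453513 to 122502225, minus strand). It had 79298 and 86303 normalized reads in control columns 2 and 3, and 70442 and 70831 in knockout replicates 1 and 2. The knockout libraries were close to each other and both lay below the controls, which differed more from each other. The 4 libraries had the same order for Atp2a2 as for the summed acinar markers, given with Itpkc. Few orders remain once both groups are apart, so this match says little. The part of acinar cells in the Atp2a2 values was not tested. The mean was 82800.1 ± 4953 in controls against 70636 ± 275 in knockouts (n = 2 each, SD), and the fitted change was -14.6%. On the log2 scale this was -0.23 ± 0.06 (SE; 95% interval -0.37 to -0.09) with a limma adjusted p of 0.130, so it was not called. DESeq2 on the recovered reads called it lower (log2 fold change -0.23, adjusted p 0.0181). DESeq2 called 322 of 16589 tested genes (1.94%), although 3217 of these had no adjusted p and could not be called. In the authors' deposited table the adjusted p of Atp2a2 is 0.0123, and that of Itpr1 is 0.0766 and of Itpr3 0.302.

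Atp2a3 encodes SERCA3, a pump of lower calcium affinity found in beta cells and other specialized cells (ENSMUSG00000020788; chromosome 11, 72961169 to 72993044, plus strand). Its values were 37373 and 37338 in controls against 37182 and 35579 in knockouts, in the order given above. Both knockout values were below both controls, with knockout replicate 1 at 99.5% of the control mean. The log2 fold change was -0.04 ± 0.05 (SE) with a limma adjusted p of 0.794. Without knockout replicate 2 it was -0.0067. The limma 95% interval was -0.15 to 0.08, with a spread mostly borrowed across genes.

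Atp2a2 made up 64.8% and 66.7% of the summed pump level per kb in controls and 62.2% and 63.4% in knockouts, with Atp2a3 as nearly all of the rest. The muscle pump Atp2a1 had 3 reads over all libraries. The ratio of Atp2a2 to Atp2a3 was 1.84 and 2.01 in controls and 1.65 and 1.73 in knockouts. Pump level per kb exceeded IP3 receptor level by 33.5 and 38.5 times in controls and by 30.6 and 33.3 times in knockouts. These last ranges nearly touch, so the balance between pump and receptor transcripts was not separated clearly between genotypes with this length. The sums depend on the gene lengths used, and their ratio with the longest transcript was not examined.

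Itpkc encodes an IP3 3-kinase that is expressed in many tissues (ENSMUSG00000003752; GRCm38 chromosome 7, 27207172 to 27228661, minus strand). It had 1455 and 1824 normalized reads in control columns 2 and 3, and 869 and 1054 in knockout replicates 1 and 2. Both knockout libraries were well below both controls, although the controls differed from each other by more than the knockouts did. The mean fell from 1639 ± 261 to 961 ± 131 (n = 2 each, SD). The log2 fold change was -0.77 ± 0.12 (SE; 95% interval -1.03 to -0.50), or 41.2% lower, with a limma adjusted p of 0.0386, and Itpkc ranked 52 of 16589 genes by p. In the authors' deposited table, where the sign is control over knockout, the log2 fold change of Itpkc is 0.77 and its adjusted p 1.19e-06. Summed acinar markers, genes of the digestive enzyme cells around the islets, were 17260 and 18124 in controls against 9246 and 14120 in knockouts. The 4 libraries had the same order for this sum as for Itpkc. With both groups apart few orders remain, so such a match says little. Itpr3 and Atp2a3, also lower in both knockout libraries, had other orders. The part of acinar cells in the Itpkc values was not tested.

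The count models gave similar sizes for Itpkc: edgeR on the recovered reads gave -0.76 with an adjusted p of 0.0316 (0.772% of genes called), and DESeq2 gave -0.77 with 8.05e-07. The call ended in limma without control column 3 (-0.60, adjusted p 0.0501), with no filter on low values (0.224), with a filter at 50 (0.0513), with robust empirical Bayes (0.0823) and with no trend of variance on mean (0.380). The direction was the same in all 15 fits, with log2 fold changes from -0.93 to -0.60.

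The end of Itpkc opposite its promoter lies over exons of BC024978, a coding gene on the opposite strand. The shared stretch, chromosome 7 from 27207172 to 27208444, is 24.1% of the exon length of Itpkc. The strand setting of the counting is not given in the sources used here, so reads there cannot be told apart. BC024978 had 489 and 453 normalized reads in controls and 408 and 436 in knockouts, with a log2 fold change of -0.16 ± 0.09 (SE) and a limma adjusted p of 0.506. Itpkc shared 1226 of its 5283 words of 50 bases with transcripts of another gene, and BC024978 was the only such gene. Of the genes whose exons touch the other members, only Gm5069, over 66 bases of Itpkb, was high enough to test, at 200.3 and 232.8 normalized reads in controls against 225.8 and 251.2 in knockouts (log2 fold change 0.14 ± 0.13 SE, limma adjusted p 0.695).

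Itpkb, the kinase with a known role in lymphocyte calcium signalling (ENSMUSG00000038855; chromosome 1, 180330485 to 180424802, plus strand), was the most abundant of the 3. Its values were 12597 and 13409 in controls and 12318 and 12962 in knockouts, and the groups overlapped. Its log2 fold change was -0.04 ± 0.05 (SE; 95% interval -0.16 to 0.08) with a limma adjusted p of 0.792. Itpka, the kinase known from neurons, where it also binds actin (ENSMUSG00000027296; chromosome 2, 119742337 to 119751263, plus strand), was low. It had 71.5 and 65.3 normalized reads in controls and 82.2 and 85.3 in knockouts, with both knockout values higher. The log2 fold change of Itpka was 0.29 ± 0.18 (SE) with a limma adjusted p of 0.533, and its 95% interval, -0.12 to 0.70, was wide.

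Itpkb took 79.3% and 77.1% of the summed kinase level per kb in controls and 84.9% and 83.4% in knockouts. The ratio of Itpkb to Itpkc was 4.37 and 3.71 in controls and 7.16 and 6.21 in knockouts, so the groups did not overlap. Itpkb itself overlapped between groups, so this ratio and the shares mostly restate the lower Itpkc values and are no separate result. Kinase level as a whole was 1591 ± 102 per kb in controls against 1436 ± 69.5 in knockouts (n = 2 each, SD), with library ranges of 1519 to 1663 and 1387 to 1485.

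**Figure D4:**
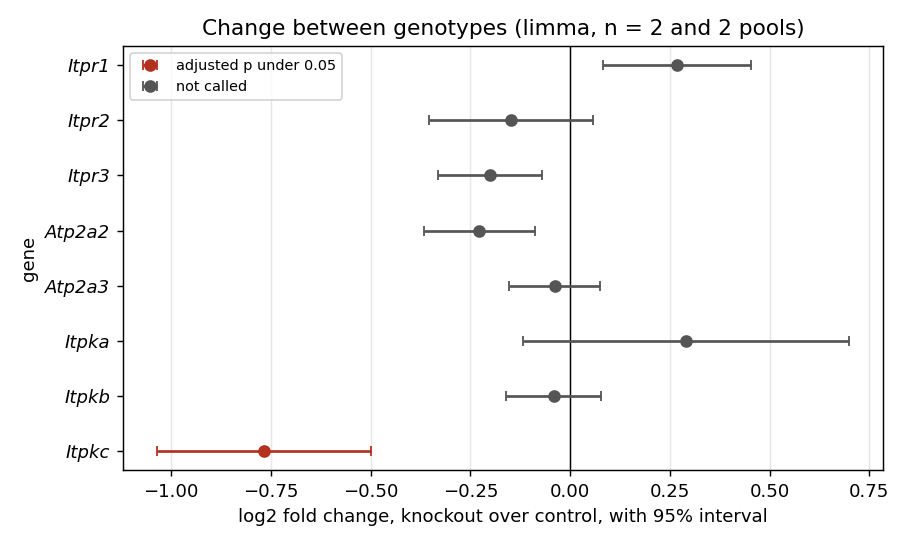
Log2 fold change of the 8 tested genes, knockout over control (x axis), with 95% intervals from limma (bars), by gene (y axis). Itpkc alone was called, at -0.77 with an interval of -1.03 to -0.50, and the intervals of Itpr1, Itpr3 and Atp2a2 lie on one side of 0 before adjustment for all genes tested.

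The promoters of Itpkc, which fell, and of Itpkb, the more abundant kinase that was not called, are shown to set the kinases side by side. The windows are from RefSeq (GRCm38.p6), hold 300 bases, and run from 250 bases before to 50 after the annotated start. Both are written 5′ to 3′ on the strand of the gene, with GC boxes (GGGCGG on either strand) in capitals. The Itpkc window is chr7:27228568-27228867, minus strand, and the Itpkb window is chr1:180330226-180330525, plus strand.
Itpkc: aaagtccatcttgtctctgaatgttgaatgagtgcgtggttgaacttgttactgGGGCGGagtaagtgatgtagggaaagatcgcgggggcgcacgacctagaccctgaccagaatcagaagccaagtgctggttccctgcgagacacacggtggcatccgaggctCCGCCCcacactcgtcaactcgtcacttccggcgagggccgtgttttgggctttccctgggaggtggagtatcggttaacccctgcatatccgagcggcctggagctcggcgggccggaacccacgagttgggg
Itpkb: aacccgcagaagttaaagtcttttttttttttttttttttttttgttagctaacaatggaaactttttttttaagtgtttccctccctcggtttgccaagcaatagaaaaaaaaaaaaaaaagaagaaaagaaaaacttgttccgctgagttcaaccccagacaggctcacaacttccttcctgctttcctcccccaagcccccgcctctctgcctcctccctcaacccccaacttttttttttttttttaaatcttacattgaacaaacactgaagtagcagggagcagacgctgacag

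The Itpkc window held 2 GC boxes and 59.3% G or C, and the Itpkb window held no GC box and 39.3% G or C, the lowest of the 7 windows found. A GC box stood in 35.7% of 32851 promoter windows of this length, whose median G or C content was 52.7%. Neither window held CCAAT (37.4% of windows), the ER stress element (CCAAT and CCACG with 9 bases between them, 0.119%), the cyclic AMP element TGACGTCA (1.79%) or TATAAA (13.6%), searched on both strands. The ER stress element contains CCAAT, so these searches overlap. The table held windows for 7 of the 9 genes, all but Itpr1 and Atp2a2. Itpr2 and Atp2a3 had the most GC boxes, 5 each, in windows with 73.3% and 68.3% G or C.

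By the distance between log2 profiles over the 4 libraries, each centred on its mean, the genes most like Itpkc were Ocln, Klf7 and Dusp16 among 12266 candidates. Their root mean square distances were 0.037, 0.073 and 0.075 on the log2 scale, and 7 genes lay within 0.1. Ocln, which encodes the tight junction protein occludin, had 1269 and 1702 normalized reads in controls and 796 and 942 in knockouts. Klf7, a zinc finger transcription factor gene, had 4029.9 and 5112 in controls and 2739 and 3016 in knockouts. Dusp16, a MAP kinase phosphatase gene, had 2601 and 3278 in controls and 1769 and 1966 in knockouts. The choice by profile fixes that their libraries follow the order seen for Itpkc.

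The rest of the pathway was described from 7 lists of 103 genes, of which 91 were tested. By limma none was called at an adjusted p under 0.05, beside 0.621% of all tested genes. At that share lists of this size can hold no called gene, so the counts of 0 here and below do not show an unchanged pathway. An unadjusted p under 0.05 was found for 6, beside 14.1% of all tested genes. Of the genes that make IP3, 0 of 15 tested were called, with 7 log2 fold changes above 0 and 8 below and a median of -0.01. The G protein genes Gnaq and Gna11, which couple receptors to phospholipase C, stood at -0.04 ± 0.05 and -0.01 ± 0.05 (SE). Gna15, a Gq-class gene of blood cells singled out after its values were seen, was at 35.8 and 18.5 normalized reads in controls and 8.33 and 7.67 in knockouts (-1.57 ± 0.40 SE, limma adjusted p 0.118).

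Of the other inositol phosphate enzymes, 0 of 21 tested were called, with 9 values above 0 and 12 below and a median of -0.03. The inositol hexakisphosphate kinases Ip6k1 and Ip6k2, its most abundant members, stood at -0.02 ± 0.05 and 0.09 ± 0.06 (SE). Ipmk, the multikinase that also accepts IP3, had 3599 and 4070 normalized reads in controls and 3081 and 3247 in knockouts. Its log2 fold change was -0.28 ± 0.07 (SE) with a limma adjusted p of 0.0991, and it was singled out after its values were seen.

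Among partners and regulators of the IP3 receptors, 0 of 25 tested were called, 15 were above 0 and 10 below, and the median was 0.02. Tmbim6, an ER membrane protein that limits calcium loading, stood at 0.02 ± 0.05 and Ahcyl1, which encodes the IP3 receptor binding protein IRBIT, at 0.02 ± 0.05 (SE). The lowest limma adjusted p values of this list, found after the values were seen, were those of Itprid2, whose protein tethers IP3 receptors to actin (-0.25 ± 0.06 SE, 0.0857) and of the scaffold gene Homer1 (-0.34 ± 0.08 SE, 0.0976). Homer1 had 1017 and 1151 normalized reads in controls and 880.5 and 834 in knockouts.

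Of the ryanodine receptor partners, 0 of 14 tested were called, 7 were above and 7 below 0, and the median was -0.01. Calm3, a calmodulin gene, stood at -0.03 ± 0.05 (SE). Triadin (Trdn), which anchors calsequestrin to the ryanodine receptor in muscle, had no read in any library, where a count of 0 allows up to 3 reads per library. Of the pump regulators, 0 of 6 tested were called and all 6 were above 0, with a median of 0.06. Tmx1 stood at 0.06 ± 0.06 (SE). Tmco1, at 0.07 ± 0.05 (SE), encodes an ER calcium leak channel and not a regulator of the pump, so this list is broader than its name. The muscle inhibitors of the pump were at or near 0, with no read for sarcolipin (Sln) and normalized counts of at most 1.92 for phospholamban (Pln). Of the calcium pumps and exchangers outside the ER, 0 of 9 tested were called, 5 were above 0 and 4 below, and the median was 0.01. Atp2c1, the Golgi pump, stood at -0.05 ± 0.06 and Atp2b1, a plasma membrane pump, at -0.02 ± 0.05 (SE).

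**Figure D5:**
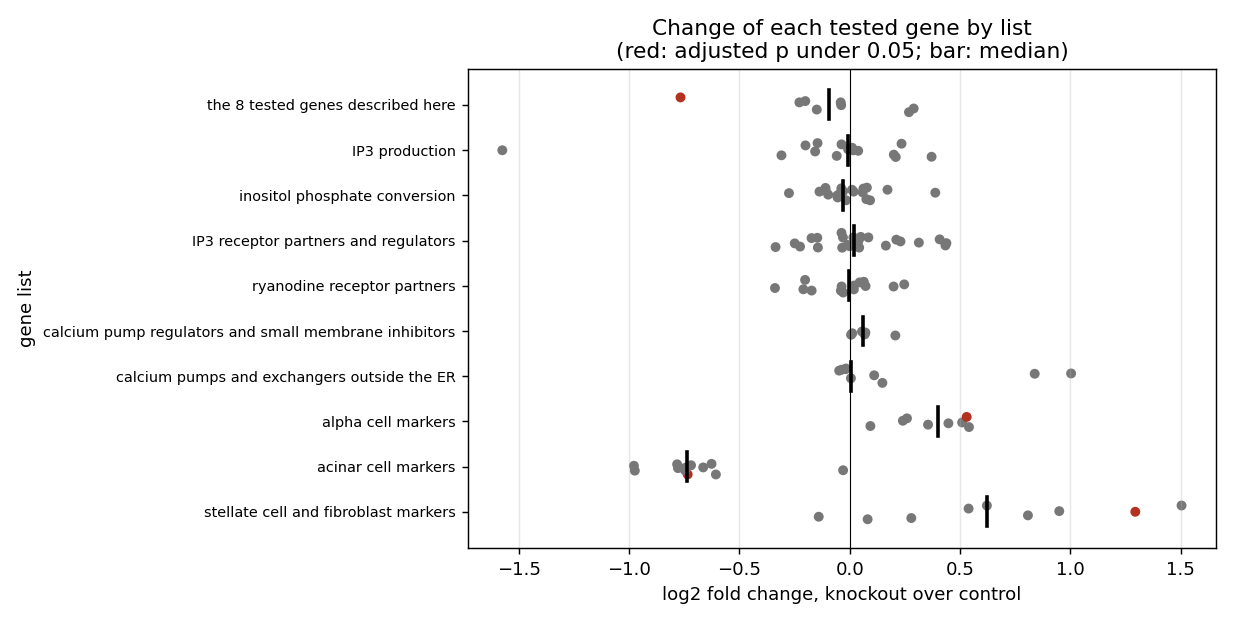
Log2 fold change, knockout over control (x axis), of each tested gene (points) by list (y axis), with list medians as bars and called genes in red. No gene of the 6 pathway lists drawn below the top row was called, and the acinar markers have a median of -0.74.

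Markers of the cell types in the islet preparations differed between genotypes for some lists. All 12 tested acinar markers had log2 fold changes below 0 (median -0.74), and Try4, a trypsinogen gene, was called lower. The groups were apart, with lower knockout values, for 11 of the 12, beside 23.0% of all tested genes. The acinar genes Prss1 and Ptf1a were at 0 in 3 of 4 libraries, with 1 read each in knockout replicate 1. All 8 alpha cell markers were above 0 (median 0.40) and 1 was called higher. Over all tested genes, 0.247% were called higher and 0.374% lower. Of the stellate cell and fibroblast markers, 8 of 9 were above 0 (median 0.62), and the matrix gene Dcn was called higher. Delta and PP cell markers summed to 277425 and 230238 in controls against 281403 and 316427 in knockouts. All 6 tested were above 0 (median 0.17) and Rbp4 was called higher. That sum was largely Sst and Ppy, at 120197 and 101500 in control column 2. Schwann cell markers summed to 650 and 636 in controls against 723 and 820 in knockouts, with all 5 above 0 (median 0.58) and none called. The groups were apart with higher knockout values for 7 of 8 alpha, 7 of 9 stellate, 5 of 6 delta and PP and 4 of 5 Schwann markers, beside 22.0% of all tested genes. The part of these cells in the other values was not tested.

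Beta cell markers summed to 10877407 and 10375133 in controls against 10911136 and 11221156 in knockouts, so both knockout sums were above both control sums. The sum was largely Ins2 and Ins1, at 6490565 and 2938484 in control column 2, and so mostly reports these 2 genes. Of the 10 markers, 5 were above 0 and none was called. Summed markers overlapped between genotypes for duct cells (12377 to 12572 in controls, 12232 to 13022 in knockouts), endothelial cells (26800.0 to 30676 and 28812 to 30787) and immune cells (9126 to 10685 and 9304 to 10122). The duct sum does not stand for each marker. Of 7 tested duct markers, 4 were above 0 and 3 below, from -0.64 to 0.88, and none was called. The highest, Krt19, had 15.3 and 30.2 normalized reads in controls and 37.5 and 44.1 in knockouts.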

How the data were processed

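Per the labels' protocols, islet RNA was enriched for poly(A) and sequenced on Illumina instruments. GRCm38, DESeq2 1.22.2, featureCounts 1.6.0, STAR 2.5.1b and CASAVA 1.4 are named in the submitters' processing notes. Which annotation and strand setting were used is not given in the sources used here. For each gene the authors deposited 1 signal value in every library, which per the file headers is a normalized read count. Their table, per the file headers, also gives a mean signal, a log2 fold change whose sign is control over knockout, its standard error, a test statistic (score), a p-value and an adjusted one. No column of another sample was found (0).

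Each column was divided by what 1 read is worth in it, and 100% of the results were whole numbers to within 0.01 of a read. Chi-square over degrees of freedom was 10.1 between the control libraries and 9.85 between the knockout libraries, so neither pair is 1 library deposited under both names. Counting error matters at this depth only for genes with few reads.

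Tested genes reached 10 normalized reads in 2 or more libraries. The two-sided test was that of limma (3.58.1, R 4.3.3) with a trend of variance on mean, after a pseudocount of 1 and log2, and Benjamini-Hochberg adjustment ran over every tested gene with a threshold of 0.05. Each gene has 2 residual degrees of freedom and the empirical Bayes prior adds 6.85, so the spread is mostly borrowed across genes. The pseudocount understates the change of low genes. edgeR 4.0.16 and DESeq2 1.42.0 on the recovered reads were alternatives, and DESeq2 left 3217 adjusted p-values NA. The steps were tested on simulated data. Lengths and coordinates are from GENCODE M21 (GRCm38), which holds 99.4% of the gene identifiers.

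The members and lists were chosen with earlier results of these data known. Named genes were the 9 members, the called genes of each pathway list or else its 2 most abundant ones, genes sharing exons with a member (those tested were BC024978 and Gm5069), the 3 profiles nearest to a called member among genes with a mean of at least 50 and no predicted, clone or Rik name, and defining cell markers. Some genes that this rule or a list would name are not reported here. Alternatives covered the filter on low values (none, or 50), the pseudocount (0.5 or 5), a common total or upper quartile, no trend, robust empirical Bayes, each library left out, the count tests and, added after seeing the data, the longest transcript as gene length.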

Additional observations from a re-analysis of the deposited data

How the results depend on the processing

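The 8 tested genes kept their direction and their side of the threshold in 104 of 112 alternative fits. Itpkc, at -0.77 with all libraries, was not called with no filter, a filter at 50, no mean-variance trend or robust empirical Bayes, where its log2 fold change was also -0.77. The number of these genes called lower was 0 in each of those 4 fits and 2 in DESeq2, which also called Atp2a2 (-0.23). Leaving out 1 library at a time gave -0.93 to -0.60 for Itpkc, 0.13 to 0.40 for Itpr1 (called higher only without knockout replicate 2) and -0.086 to 0.0044 for Itpkb (above 0 only without control column 3). It gave -0.28 to -0.013 for Itpr2, -0.070 to -0.0067 for Atp2a3, -0.25 to -0.15 for Itpr3, -0.29 to -0.17 for Atp2a2 and 0.23 to 0.36 for Itpka, and 0 to 1 of these genes were called higher and 0 to 1 lower. All genes called higher and lower numbered 1 and 1 with no filter (27523 genes tested), 19 and 32 with a filter at 50 (13473 tested), 85 and 124 with robust empirical Bayes, 120 and 202 in DESeq2, and 0 and 0 in limma without the trend, where 1841 genes had an unadjusted p under 0.05. Leaving out 1 library gave 207 higher and 241 lower without control column 2, 58 and 49 without control column 3, 72 and 98 without knockout replicate 1, and 101 and 148 without knockout replicate 2. Apart from the changed gene sets of the filters and the missing libraries, the cause was not tested.

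Signs of genes near 0 were not stable. With a common upper quartile, Gna11 was 0.012, Ip6k1 0.0025 and Atp2b1 0.00049. Without control column 3, Gna11 was 0.013 and Atp2b1 0.023. Leaving out 1 library gave -0.028 to 0.014 for Gna11, -0.053 to 0.020 for Ip6k1, -0.023 to 0.056 for Ahcyl1, -0.061 to 0.024 for Atp2b1, -0.13 to 0.033 for Atp2c1 and -0.27 to 0.42 for Ryr3. With the longest transcript as the length, Itpr1 took 53.1% of the receptor level in controls and 60.8% in knockouts, and Itpr3 33.1% and 27.4%. Depth limits Ryr2 and the other genes with few reads. No paired analysis was possible because no source documents which control goes with which knockout: the control columns are numbered 2 and 3, which do not match the replicate numbers of the labels, so no replicate block was run.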
